A study of Mus musculus with 6 samples.

Results

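SR proteins, Tra2 proteins, hnRNPs and the PTB and PCBP proteins bind pre-mRNA and set which exons and splice sites are used. The 36 mouse genes examined here were taken from these families by symbol, at a point when earlier results of these data were known. All 36 were found among the 27179 gene IDs of the count table. They comprised 10 SR protein genes, both Tra2 genes, 8 genes for hnRNPs of the A/B, C and D groups, 12 for hnRNPs of the F/H, K, L, M, R/Q and U groups, and 4 for PTB and PCBP proteins. Transcripts were measured by RNA sequencing in osteoblasts, the cells that build bone, from the skull vault (calvaria) of C57Bl/6J pups. The study set 3 samples with a conditional knockout of Cdc73, also named Hrpt2, against 3 wildtype samples, in a series whose title ties the loss of this gene in osteoblasts to high bone mass. The product of Cdc73, parafibromin, belongs to the Paf1 complex, which travels with RNA polymerase II. In both genotypes the pups were 5 days old, the tissue was digested with collagenase, and cells carrying GFP under the control of Osteocalcin-Cre, which is active in the osteoblast lineage, were sorted into Trizol. Both groups thus share the GFP reporter, and the labels do not say which other alleles the wildtype pups carried. They also do not say whether each library came from its own animal, litter or pool, and the p-values therefore cover no more than the differences among these samples, which may be technical.

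SR proteins carry RNA recognition motifs and a tail rich in arginine and serine. They bind exonic enhancers and recruit the spliceosome, mostly promoting exon inclusion. hnRNPs coat nascent transcripts and often act in the opposite direction, by blocking enhancers or splice sites, and the balance between both families shifts the choice of isoform. Many genes of both families limit their own level through an exon that brings in a premature stop codon and sends the transcript to nonsense-mediated decay, so paralogues often restrain each other. The counts used here are per gene, and they do not separate productive transcripts from those with such an exon.

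Library totals lay between 14837272 and 16380767 counts in the knockout group and between 13591925 and 20993962 in the wildtype group. Levels below are CPM, that is, counts relative to the library total after scaling with edgeR's TMM factors, and differences are log2 of knockout over wildtype ± SE. Cdc73 itself measured 14.0, 14.7 and 14.4 CPM in knockout 1, 2 and 3, against 20.5, 12.8 and 21.7 CPM in wildtype 1, 2 and 3 (log2 fold change -0.36 ± 0.22, edgeR adjusted p = 0.428). Wildtype 2 lay below every knockout library. The sources used here do not name the exons removed, so the gene's count did not check the labels. Transcripts of osteoblasts were abundant, with 12 marker genes summing to 247691 to 365992 CPM in knockout and 291997 to 323830 CPM in wildtype libraries. The 13 cartilage cell markers summed to 15163 to 29744 CPM in knockout and 4864 to 12513 CPM in wildtype libraries. Their median log2 fold change was 2.11, with all 13 positive, and 0.92 against wildtype 1 alone. For 11 of the 13 the groups did not overlap, with knockout higher, where 10.6% of all genes tested did so. At an edgeR adjusted p under 0.05, 0 of the 13 passed. The 14 macrophage markers summed to 187 to 450.1 CPM in knockout and 109.9 to 165 CPM in wildtype libraries (median 1.16, all 14 positive). Wildtype 1 stood nearer to the knockout libraries than wildtype 2 and 3 did. Its values lay inside the range of the knockout libraries for 51.7% of the 13505 genes tested, against 24.4% for wildtype 2 and 21.2% for wildtype 3.

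All 36 regulators passed the filter on low counts, with 33 to 6563 counts per gene and library. The RNA is bulk RNA of sorted cells, in which fewer cells of a type and less RNA per cell cannot be told apart. None passed edgeR's quasi-likelihood test at an adjusted p under 0.05, and neither did any other gene (0 of 13505, 0%). At an unadjusted p under 0.05, 2 regulators were higher in knockout and 0 were lower, where 8.26% and 6.35% of all genes were. DESeq2 called 0 of the 36, beside 2.03% of the 12195 genes to which it gave an adjusted p, and with no count filter edgeR called 0 of them beside 0.121% of 19771 genes. The median log2 fold change of the 36 was 0.05, against -0.01 over all genes tested, and 21 of the 36 (58.3%) were positive, against 49.3% of all genes. The median size of the change, without its sign, was 0.12 for the regulators and 0.29 for all genes. All genes tested include 422 with a count of 0 in at least 1 library, and the regulators include 0 such genes. The part of count depth in this gap was not tested. With library size alone as the scaling, the median over all genes moved to -0.21 and that of the regulators to -0.15, with 27.8% of the 36 and 32.1% of all genes positive. The median of the regulators lay 0.06 above that of all genes under both scalings, and 0.0012 above it without wildtype 3. It lay 0.03 below that of all genes (-0.03) with no filter on low counts, and likewise against wildtype 1 alone (-0.03).

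The intervals show what sizes of change the fit left possible, given TMM scaling and the spread among these 6 libraries. Variation among animals is not covered if the libraries are technical replicates. For all 36 genes the 95% interval of the log2 fold change lay inside -1 to 1, that is, within a doubling or halving, and the outermost bounds were -0.61 and 0.90, for Hnrnph3 and Hnrnph1. Leaving out 1 library at a time, 34 to 36 of the intervals lay inside this range, and those that did not belonged to Hnrnph1 and Hnrnph3. Fold changes of 24 genes were smaller than 0.2 in size, and those of 21 were smaller than their own SE. From the lowest to the highest of all 6 libraries, single genes spanned 1.08-fold (Hnrnpk) to 1.97-fold (Hnrnph1), with a median of 1.40-fold. The median coefficient of variation of the 36 was 9.41% among knockout and 11.8% among wildtype libraries, against 13.0% and 23.4% over all genes tested. Genes were not matched for count depth in this comparison.

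**Figure D1:**
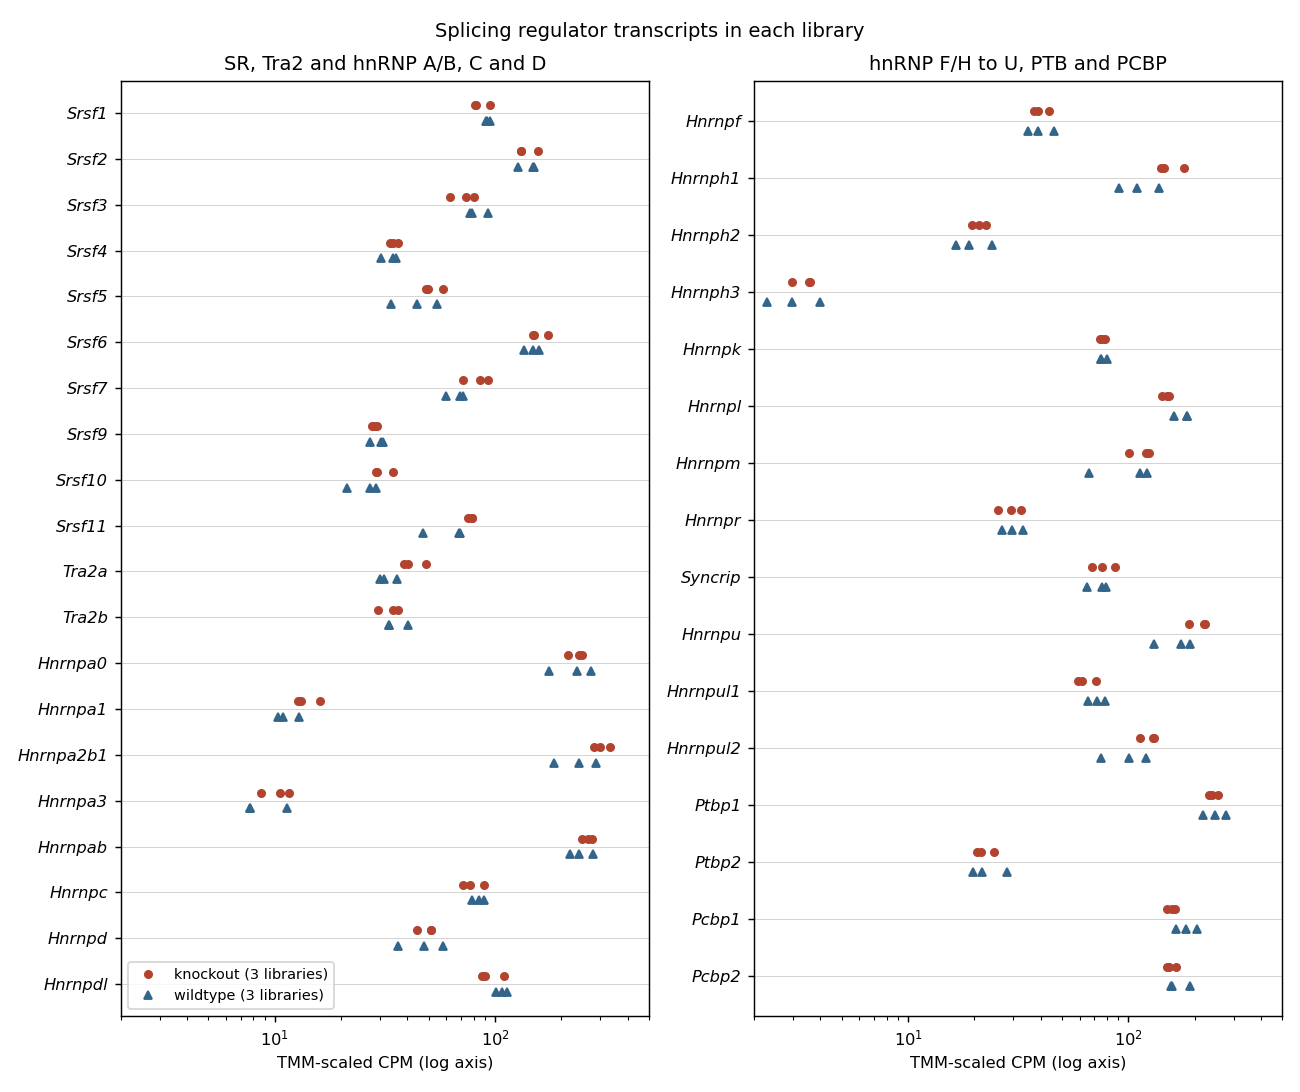
Level of each of the 36 regulators in every library, as TMM-scaled CPM on a log axis, with knockout libraries as circles above and wildtype libraries as triangles below for each gene. The points of both groups lie close together for most genes, and the 6 libraries of any gene span less than 2-fold.

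Levels between genes were compared per kilobase of annotated exon. Hnrnpab, an hnRNP that also regulates transcription, had 94.4 ± 4.86 CPM per kb in knockout and 88.3 ± 11.1 in wildtype libraries (SD, n = 3 each). Hnrnpa0, which binds AU-rich elements, had 87.7 ± 6.87 and 85.2 ± 18.5 CPM per kb in knockout and wildtype. Pcbp1, a binder of C-rich RNA, had 85.7 ± 3.67 and 100.2 ± 10.9 CPM per kb. These 3 were the most abundant in both groups. Ptbp1 followed with 51.1 CPM per kb in knockout and 52.2 in wildtype, then Srsf2 with 47.3 and 48.0. At the low end were Hnrnph3 with 1.07 and 0.979 CPM per kb, Hnrnpr with 1.31 and 1.35, Hnrnpa3 with 1.91 and 1.66, and Ptbp2 with 2.42 and 2.52. The place of Hnrnpr depends on its annotated exon length of 22199 bases, the longest of the 36. Before division by length it averaged 29.1 CPM in knockout and 30.0 CPM in wildtype. The order of the 36 was much the same in both groups, with no gene moving by more than 3 places and 12 keeping their place. Of the 35 pairs of neighbours in the order, 28 in knockout and 29 in wildtype differed by no more than the sum of their SDs.

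Sharing of reads limits some of these levels. Hnrnpa1 and Hnrnpa3 have 9 and 27 annotated pseudogenes that match their transcripts with at least 95% identity over at least 200 bases, Hnrnpf has 6, and 23 of the 36 genes have none. The sources used here do not state how reads with several matches were counted, and the part of these copies in the low levels of Hnrnpa1 and Hnrnpa3 was not tested. Another gene overlaps on the opposite strand for 16 of the 36, and they do not state the strandedness of the reads either.

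Groups that did not overlap at all were found for 7 of the 36. In 5 genes (13.9%), namely Srsf7, Srsf10, Srsf11, Tra2a and Hnrnph1, all 3 knockout libraries were above all 3 wildtype libraries, where 10.6% of all genes tested did so. In 2 genes (5.56%), Hnrnpl and Pcbp1, every knockout library lay below, where 9.81% of all genes did. These shares are near the background. With library size alone, 0 of the 36 lay fully above and 8 fully below, where 2.18% and 25.6% of all genes did. Upper-quartile factors gave 3 fully above and 2 fully below, where 9.49% and 11.1% of all genes did.

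Tra2a and Tra2b encode Tra2 alpha and beta, relatives of the SR proteins that bind GAA-rich exonic enhancers and regulate the splicing of each other's transcripts. Tra2a (gene ID 101214, chr6:49243924-49264033 in mm10, minus strand) measured 38.7, 48.7 and 40.3 CPM in knockout 1, 2 and 3, against 35.8, 30.0 and 31.2 CPM in wildtype 1, 2 and 3. Knockout 2 was the highest, and the lowest knockout library was only slightly above wildtype 1. The means were 42.6 ± 5.38 CPM in knockout and 32.3 ± 3.05 CPM in wildtype (SD, n = 3 each). The log2 fold change was 0.40 ± 0.16, with a 95% interval of 0.04 to 0.76. The edgeR adjusted p = 0.322 missed the threshold, although its unadjusted value in that test (0.0343) was the smallest of the 36. Against wildtype 1 alone its fold change was 0.24, and under library size scaling 0.19. Tra2b (gene ID 20462, chr16:22244549-22266005, minus strand) measured 34.5, 36.2 and 29.3 CPM in knockout 1, 2 and 3, against 32.9, 32.9 and 40.1 CPM in wildtype 1, 2 and 3. Its groups overlapped, and wildtype 3 was the highest library (log2 fold change -0.08 ± 0.16, edgeR adjusted p = 0.816).

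The ratio of Tra2a to Tra2b within a library does not depend on how libraries are scaled. On the log2 scale it was 0.17, 0.43 and 0.46 in knockout 1, 2 and 3, against 0.12, -0.13 and -0.36 in wildtype 1, 2 and 3. Tra2a counts exceeded Tra2b counts in every knockout library and in wildtype 1 only among the controls, and the groups did not overlap, although knockout 1 and wildtype 1 nearly met. The difference of 0.48 gave a two-sided exact permutation p of 0.1, the smallest that 3 against 3 libraries can give, and 0.26 after Benjamini-Hochberg adjustment over the 13 paralogue pairs compared.

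Srsf7 and Srsf3 encode the SR proteins 9G8 and SRp20, a closely related pair that couple splicing to mRNA export. Srsf7 (gene ID 225027, chr17:80200080-80207307, minus strand) measured 85.8, 93.0 and 71.8 CPM in knockout 1, 2 and 3, against 69.4, 60.2 and 71.4 CPM in wildtype 1, 2 and 3. The groups only just separated, knockout 3 being level with wildtype 3. The log2 fold change was 0.32 ± 0.16 (95% interval -0.04 to 0.68, edgeR adjusted p = 0.37). Srsf3 (gene ID 20383, chr17:29032628-29043373, plus strand) measured 73.5, 80.3 and 62.4 CPM in knockout 1, 2 and 3, against 78.2, 77.3 and 92.6 CPM in wildtype 1, 2 and 3, with overlapping groups (log2 fold change -0.20 ± 0.16, edgeR adjusted p = 0.537). Srsf3 has 3 annotated pseudogenes by the same measure of identity and Srsf7 has none.

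The Srsf7 to Srsf3 ratio was the most even of all pairs within the knockout group. On the log2 scale it was 0.22, 0.21 and 0.20 in knockout 1, 2 and 3, against -0.17, -0.36 and -0.38 in wildtype 1, 2 and 3. Srsf7 had the higher count in every knockout library and Srsf3 in every wildtype library, wildtype 1 included, and the gap between the groups was wider than the spread within either. The difference was 0.52 (exact permutation p = 0.1, the smallest possible, and 0.26 adjusted over the 13 pairs), and it lay between 0.48 and 0.58 when any single library was left out. Both genes lie on chromosome 17, far apart.

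The start regions of the genes in these pairs are shown because, in these SR-type pairs, the ratio of the paralogues separated the groups. Each window runs 5′ to 3′ on the gene's strand from 250 bases before to 50 after the annotated start, from RefSeq on GRCm38.p6. Capitals mark matches, on either strand, to a CRE half-site, whose letters are TGACG, to the CCAAT box, to a GC box with the letters GGGCGG, to a TATA box with the letters TATAAA, or to an ETS core with the letters CGGAAG. A match on the opposite strand appears as the reverse complement. The windows are chr6:49264003-49264302 (minus strand) for Tra2a, chr16:22265956-22266255 (minus strand) for Tra2b, chr17:80207256-80207555 (minus strand) for Srsf7 and chr17:29032410-29032709 (plus strand) for Srsf3.
Tra2a: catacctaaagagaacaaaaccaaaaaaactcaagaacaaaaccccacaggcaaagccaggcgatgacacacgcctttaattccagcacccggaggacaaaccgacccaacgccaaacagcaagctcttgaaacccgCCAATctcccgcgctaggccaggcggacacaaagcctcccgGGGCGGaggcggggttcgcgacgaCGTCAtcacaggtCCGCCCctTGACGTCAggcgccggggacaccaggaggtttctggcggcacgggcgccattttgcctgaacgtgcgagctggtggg
Tra2b: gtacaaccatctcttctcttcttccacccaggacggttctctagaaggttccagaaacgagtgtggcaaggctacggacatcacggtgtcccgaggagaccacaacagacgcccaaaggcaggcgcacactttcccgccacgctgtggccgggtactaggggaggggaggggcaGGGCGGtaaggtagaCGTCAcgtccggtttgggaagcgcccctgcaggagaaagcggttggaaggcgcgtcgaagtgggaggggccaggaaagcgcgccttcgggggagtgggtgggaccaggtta
Srsf7: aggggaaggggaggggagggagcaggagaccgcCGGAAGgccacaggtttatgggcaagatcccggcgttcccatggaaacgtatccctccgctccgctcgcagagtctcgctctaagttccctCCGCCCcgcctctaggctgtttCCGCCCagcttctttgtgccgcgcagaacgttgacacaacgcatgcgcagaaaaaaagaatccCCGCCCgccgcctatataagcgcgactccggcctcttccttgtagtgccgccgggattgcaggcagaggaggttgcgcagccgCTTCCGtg
Srsf3: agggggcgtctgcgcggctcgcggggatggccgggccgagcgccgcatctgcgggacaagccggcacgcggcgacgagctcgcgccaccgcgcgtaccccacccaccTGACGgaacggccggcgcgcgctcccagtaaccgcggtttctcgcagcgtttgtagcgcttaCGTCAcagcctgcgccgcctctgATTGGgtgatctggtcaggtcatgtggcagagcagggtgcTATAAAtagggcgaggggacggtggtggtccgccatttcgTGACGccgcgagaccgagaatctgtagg

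Tra2a held 3 CRE half-site matches, of which a pair overlap in the palindrome TGACGTCA near the start, together with 1 CCAAT box and 2 GC boxes, and its window was 60% G or C. Tra2b held 1 CRE half-site and 1 GC box (62.3% G or C). Srsf7 held 3 GC boxes and 2 ETS cores and no CRE half-site (62.7%), and Srsf3 held 3 CRE half-sites, 1 CCAAT box and 1 TATA box (68.3%). The Srsf7 window had no match to the letters TATAAA, but it holds the similar run tatataag, which the search did not count. Of the 36 genes 35 had at least 1 window in the RefSeq table, 48 windows in all. The CRE half-site was found in 56.2% of these windows and in 20.8% of all 32851 windows of the table, the GC box in 85.4% and 35.7%, the ETS core in 43.8% and 16.9%, the CCAAT box in 47.9% and 37.4%, and the TATA box in 8.33% and 13.6%. The regulators' windows were richer in G and C, with a median of 67.8% against 52.7% over all windows, and the part of base composition in these shares was not tested. The motifs were chosen after some windows had been read, so these shares describe the windows and do not test for enrichment. The matches are letters in these windows and not measured binding sites.

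Among the other SR genes, Srsf10 and Srsf11 also had groups that did not overlap. Srsf11, which encodes the SR-related protein p54, measured 78.5, 78.4 and 75.7 CPM in knockout 1, 2 and 3, against 68.9, 46.9 and 69.6 CPM in wildtype 1, 2 and 3. The knockout libraries were nearly equal, and wildtype 2 alone lay far below the rest (log2 fold change 0.33 ± 0.18, edgeR adjusted p = 0.397). Srsf10, a regulator that represses splicing when dephosphorylated, measured 29.2, 34.3 and 28.9 CPM in knockout 1, 2 and 3, against 28.8, 21.3 and 27.2 CPM in wildtype 1, 2 and 3. Here the separation was narrow, wildtype 1 being almost level with 2 knockout libraries (0.26 ± 0.17, edgeR adjusted p = 0.461). Against wildtype 1 alone the fold changes of Srsf11 and Srsf10 were 0.16 and 0.09.

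The remaining SR genes had overlapping groups. Srsf1, the first SR protein described as a splicing factor, averaged 86.0 ± 7.44 CPM in knockout and 92.5 ± 2.23 in wildtype (log2 fold change -0.11 ± 0.14), and Srsf2, also called SC35 and widely used as a marker of nuclear speckles, averaged 139.8 ± 14.3 and 142 ± 12.6 CPM (-0.02 ± 0.16). Srsf4, Srsf5 and Srsf6 form a subgroup with a second, divergent RNA recognition motif. Srsf5 had 49.7, 58.2 and 48.7 CPM in knockout 1, 2 and 3 and 54.4, 44.4 and 33.7 CPM in wildtype 1, 2 and 3, so that the wildtype libraries spread more widely than the knockout ones (0.24 ± 0.19). Srsf4 and Srsf6 differed by 0.06 ± 0.15 and 0.10 ± 0.15, and Srsf9, a small relative of Srsf1, by -0.05 ± 0.15. Over the 10 SR genes 6 fold changes were positive, with a median of 0.08. With wildtype 1 as sole control 5 were positive (median -0.0013). With library size alone the median was -0.12, against -0.21 for all genes.

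Among hnRNPs, Hnrnph1 had the largest fold change of the 36. hnRNP H1 binds runs of G and can enhance or silence exons depending on where it binds. Its gene (gene ID 59013, chr11:50376990-50386528 in mm10, plus strand) measured 144, 179 and 141 CPM in knockout 1, 2 and 3, against 138, 109 and 90.9 CPM in wildtype 1, 2 and 3. Knockout 2 was highest and wildtype 3 lowest, while wildtype 1 was just under knockout 3. The means were 155 ± 21.3 CPM in knockout and 113 ± 23.9 CPM in wildtype, a log2 fold change of 0.46 ± 0.20 with a 95% interval of 0.02 to 0.90. It did not pass either (edgeR adjusted p = 0.331, and 0.0423 before adjustment). The value was 0.61 once wildtype 1 was left out and 0.15 against wildtype 1 alone.

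The relatives of Hnrnph1 showed smaller values. Hnrnpf, whose protein binds the same G runs, averaged 39.9 ± 3.43 CPM in knockout and 39.9 ± 5.63 CPM in wildtype (log2 fold change 0.00 ± 0.16), and the X-linked Hnrnph2 averaged 21.0 ± 1.58 and 19.8 ± 3.83 CPM (0.08 ± 0.18). Hnrnph3 had the lowest counts of the 36, at 3.38 ± 0.337 and 3.09 ± 0.846 CPM (0.12 ± 0.33). Relative to Hnrnph1, both Hnrnpf and Hnrnph2 were lower in the knockout group. The log2 ratio of Hnrnpf to Hnrnph1 was -1.89, -2.04 and -1.92 in knockout 1, 2 and 3, against -1.83, -1.24 and -1.38 in wildtype 1, 2 and 3, and that of Hnrnph2 to Hnrnph1 was -2.78, -2.98 and -2.85 against -2.53, -2.72 and -2.26. Neither pair of groups overlapped, and wildtype 1 lay within 0.1 of knockout 1 for the first ratio. The differences were -0.47 and -0.37 (exact permutation p = 0.1 for each, 0.26 adjusted over the 13 pairs), and both ratios share the counts of Hnrnph1.

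The U group gave a further ratio of this kind. Hnrnpu, an RNA- and chromatin-binding protein also called scaffold attachment factor A, measured 189, 221 and 223 CPM in knockout 1, 2 and 3, against 190.4, 174 and 131 CPM in wildtype 1, 2 and 3 (log2 fold change 0.35 ± 0.18, edgeR adjusted p = 0.384). Hnrnpul2 measured 113, 129.7 and 130.5 CPM in knockout 1, 2 and 3, against 119.6, 100.4 and 74.8 CPM in wildtype 1, 2 and 3 (0.34 ± 0.19, edgeR adjusted p = 0.403). In both genes wildtype 1 lay inside the knockout range, and wildtype 3 was the lowest library. Hnrnpul1 had 64.1 ± 6.67 CPM in knockout and 71.8 ± 6.05 CPM in wildtype (-0.16 ± 0.15). The log2 ratio of Hnrnpul2 to Hnrnpul1 was 0.94, 1.07 and 0.87 in knockout 1, 2 and 3, against 0.74, 0.37 and 0.18 in wildtype 1, 2 and 3. The groups did not overlap, and the difference was 0.53 (exact permutation p = 0.1, 0.26 adjusted over the 13 pairs).

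Hnrnpl, whose protein binds CA repeats, was 1 of the 2 genes with every knockout library below every wildtype library. It measured 152, 142 and 150.1 CPM in knockout 1, 2 and 3, against 161, 184 and 185 CPM in wildtype 1, 2 and 3, and wildtype 1 was nearest to the knockout libraries (log2 fold change -0.25 ± 0.15, edgeR adjusted p = 0.419). Hnrnpk, a C-rich RNA and DNA binder, was the steadiest of the 36, with 75.8 ± 2.01 CPM in knockout and 76.5 ± 2.65 CPM in wildtype (-0.01 ± 0.14, 95% interval -0.32 to 0.29). Hnrnpm had 101, 124 and 120.3 CPM in knockout 1, 2 and 3 and 122, 113 and 66.0 CPM in wildtype 1, 2 and 3. Its positive fold change of 0.20 ± 0.23 rested on wildtype 3, and without that library it was -0.04. Hnrnpr and Syncrip, which encode hnRNP R and hnRNP Q, differed by -0.04 ± 0.16 and 0.08 ± 0.16. Of the 12 genes of these groups 8 fold changes were positive, with a median of 0.08. Without wildtype 2 only 5 were positive and the median was -0.03. With library size alone the median was -0.13, against -0.21 for all genes.

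The A/B, C and D groups hold the classical core hnRNPs. Hnrnpa2b1 had the highest CPM of the 36 in the knockout group, at 281, 334 and 299 CPM in knockout 1, 2 and 3, against 287, 241 and 185 CPM in wildtype 1, 2 and 3. Wildtype 1 lay inside the knockout range and the others below it (log2 fold change 0.36 ± 0.20, edgeR adjusted p = 0.394), and the fold change was 0.08 against wildtype 1 alone. Hnrnpa1, the best known splicing silencer of the family, measured 14.0 ± 1.79 CPM in knockout and 11.4 ± 1.31 CPM in wildtype (0.30 ± 0.19). Hnrnpa3 measured 10.3 ± 1.51 and 8.93 ± 2.07 CPM (0.20 ± 0.23). The log2 ratio of Hnrnpa2b1 to Hnrnpa1 was 4.44 ± 0.06 in knockout and 4.37 ± 0.18 in wildtype, a difference of 0.08 (exact permutation p = 0.7). Hnrnpa0 and Hnrnpab differed by 0.04 ± 0.19 and 0.10 ± 0.16. Hnrnpc, which binds U tracts, differed by -0.08 ± 0.15. Hnrnpd, also called AUF1 and known for binding AU-rich mRNAs, differed by 0.05 ± 0.19, and its relative Hnrnpdl by -0.16 ± 0.16. Of these 8 genes 6 fold changes were positive, with a median of 0.07. Without wildtype 3 the count was 4 and the median -0.04. With library size alone the median was -0.14, against -0.21 for all genes.

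PTB and PCBP genes were the set whose fold changes were all negative with all 6 libraries, and none of the 4 passed the test. Ptbp1 encodes the polypyrimidine tract binding protein, which represses neuronal exons in other tissues, including the exon that keeps its paralogue Ptbp2 from being degraded. Ptbp1 measured 233, 255 and 239 CPM in knockout 1, 2 and 3 and 246, 278 and 218 CPM in wildtype 1, 2 and 3 (log2 fold change -0.03 ± 0.16), and Ptbp2 measured 21.5, 24.6 and 20.5 CPM in the knockout libraries and 28.0, 19.7 and 21.6 CPM in the wildtype libraries (-0.06 ± 0.18). Both genes had overlapping groups. Their log2 ratio, Ptbp2 to Ptbp1, was -3.45 ± 0.08 in knockout and -3.43 ± 0.35 in wildtype (difference -0.02, exact permutation p = 0.9). Pcbp1 was the other gene with every knockout library below every wildtype library, at 149.8, 163 and 158 CPM in knockout 1, 2 and 3 and 164, 204 and 182 CPM in wildtype 1, 2 and 3 (-0.23 ± 0.16, edgeR adjusted p = 0.474). Knockout 2 and wildtype 1 nearly met. Pcbp2 averaged 155 ± 7.80 and 168 ± 20.2 CPM (-0.11 ± 0.16). The median of the 4 fold changes was -0.09. Of the 4, 1 was positive without wildtype 1 (median -0.12) and 1 without wildtype 2 (median -0.09). With library size alone the median was -0.29, against -0.21 for all genes.

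**Figure D2:**
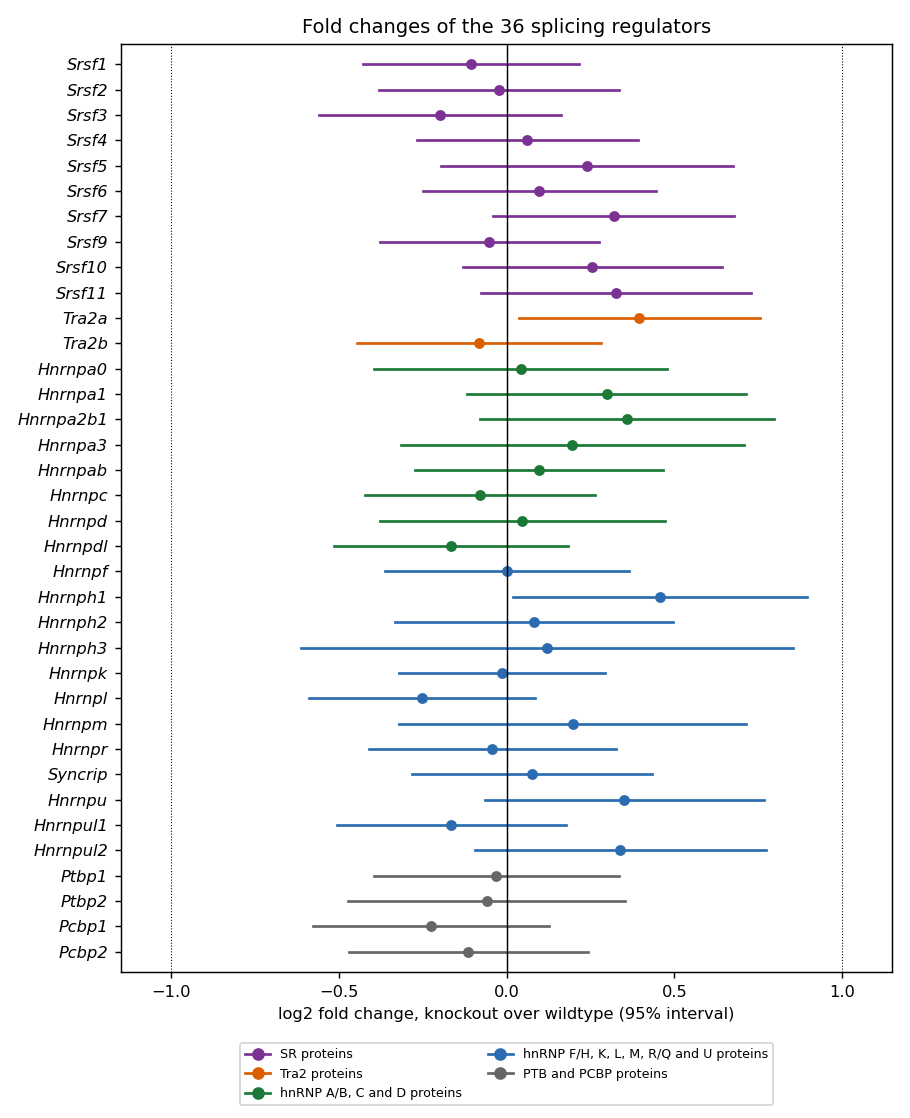
Log2 fold change of each regulator, knockout over wildtype, with its 95% interval from edgeR; colours mark the 5 families and dotted lines a doubling and a halving. All 36 intervals lie inside the dotted lines, and those of Tra2a and Hnrnph1 exclude 0.

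**Figure D3:**
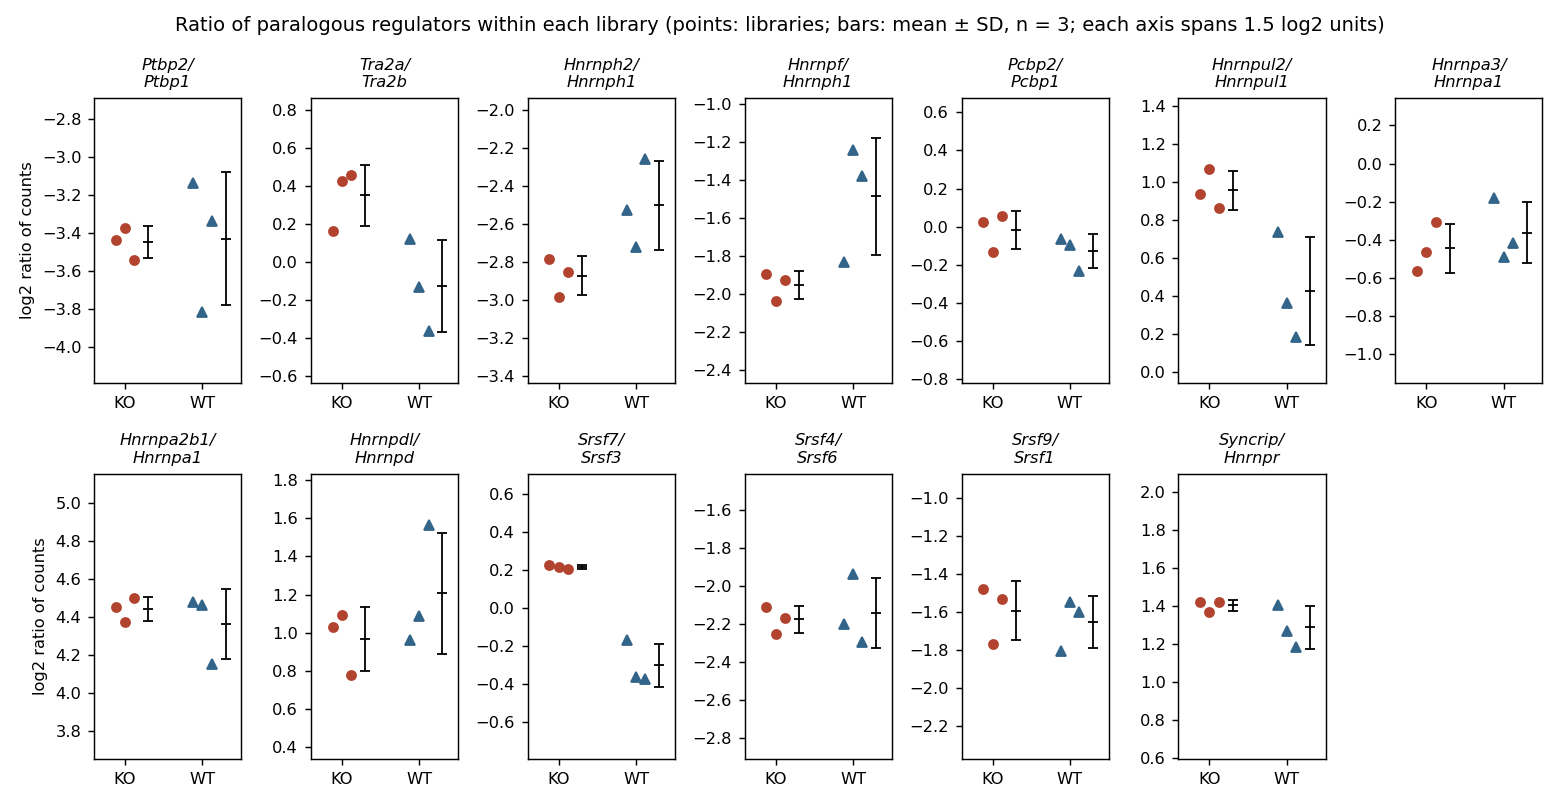
Log2 ratio of counts of 13 paralogue pairs in each library, knockout as circles and wildtype as triangles, with mean ± SD (n = 3) beside them and an equal span on every axis. The groups do not overlap for Tra2a/Tra2b, Hnrnph2/Hnrnph1, Hnrnpf/Hnrnph1, Hnrnpul2/Hnrnpul1 and Srsf7/Srsf3.

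Over the 13 pairs, 5 ratios had groups that did not overlap, 3 with the higher ratio in the knockout libraries and 2 with the lower. The lower 2 both have Hnrnph1 as their second gene. How often ratios of other gene pairs separate in this way was not computed. Single genes did so in 10.6% (higher) and 9.81% (lower) of cases, but these shares are no background for ratios. Apart from Hnrnpul2 to Hnrnpul1, each of the 5 ratios holds Tra2a, Hnrnph1 or Srsf7, whose groups did not overlap as single genes either. None of the 13 ratios could pass, since the smallest possible exact permutation p was 0.1. For the other 8 pairs the groups overlapped, with differences between -0.24 (Hnrnpdl to Hnrnpd) and 0.12 (Syncrip to Hnrnpr), and exact permutation p-values of 0.2 to 0.9. Pcbp2 to Pcbp1 differed by 0.11, Srsf9 to Srsf1 by 0.06, Srsf4 to Srsf6 by -0.03 and Hnrnpa3 to Hnrnpa1 by -0.08. These misses do not show that the ratios were alike, because the spread among wildtype libraries reached 0.35 (SD of Ptbp2 to Ptbp1).

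Seen by library, wildtype 1 was the control most often inside the knockout range, for the regulators as for all genes. Wildtype 1 lay inside the range of the knockout libraries for 20 of the 36 genes (55.6%), wildtype 2 for 11 (30.6%) and wildtype 3 for 7 (19.4%). It was the control nearest to the knockout mean for 21 genes, with a median distance of 0.09 on the log2 scale, against 0.23 for wildtype 2 and 0.20 for wildtype 3. Wildtype 3 lay below all knockout libraries for 22 genes and above all of them for 7. Over all genes it was even, with 39.4% below and 39.4% above. Wildtype 2 lay below for 16 and above for 9, where 39.0% and 36.6% of all genes did, and wildtype 1 below for 7 and above for 9, where 23.8% and 24.5% did. The median deviation of the 36 genes from their mean over all 6 libraries was -0.03, 0.11 and 0.03 in knockout 1, 2 and 3, against 0.04, -0.04 and -0.08 in wildtype 1, 2 and 3. Summed over the 36, the regulators took 3351, 3721 and 3514 CPM in knockout 1, 2 and 3, against 3513, 3488 and 3056 CPM in wildtype 1, 2 and 3.

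**Figure D4:**
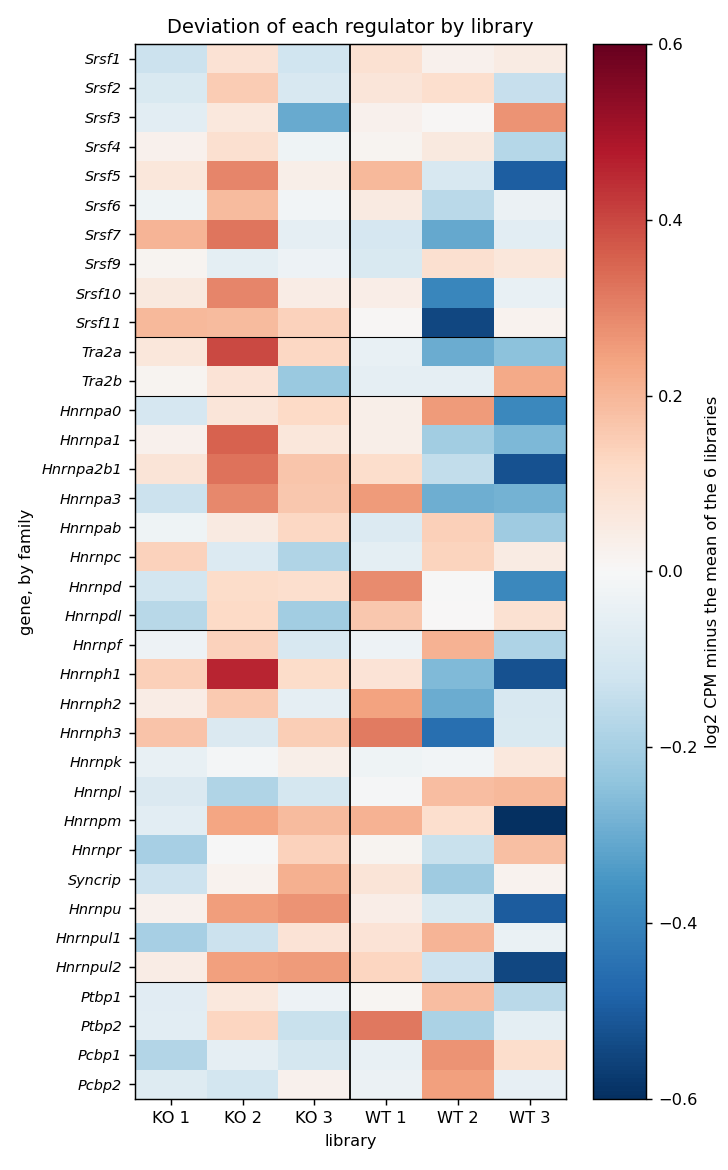
Log2 CPM of each regulator in each library minus its mean over the 6 libraries, with knockout libraries left of the line and wildtype libraries right of it. Knockout 2 is high for most genes (median 0.11), and wildtype 3 holds the strongest low values (median -0.08).

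The fold changes depended on which controls were used. With wildtype 1 as the only control, assumed to vary like the knockout libraries, 16 of the 36 fold changes were positive and the median was -0.02, and 13 genes changed sign. Of the 36, 7 then had all knockout libraries above that control and 8 below it, where 23.3% and 24.8% of all genes did. Tra2a, Srsf7, Srsf10, Srsf11 and Hnrnph1 kept positive values there (0.24, 0.26, 0.09, 0.16 and 0.15), and Hnrnpl and Pcbp1 kept negative ones (-0.13 and -0.07). Without wildtype 1, edgeR called 409 genes (2.96% of 13823) and 0 of the 36, whose lowest adjusted p was 0.0841. In that fit 11 regulators had every knockout library above both remaining controls, where 23.1% of all genes did.

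**Figure D5:**
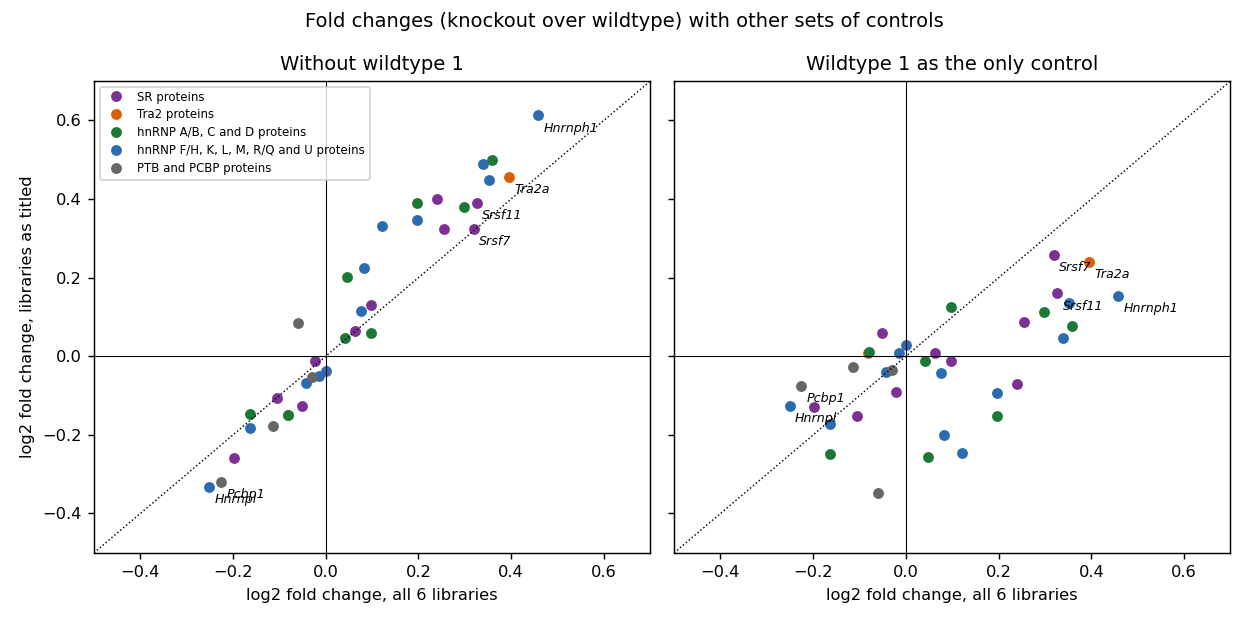
Log2 fold changes of the 36 regulators with all 6 libraries (horizontal) against those without wildtype 1 (left) and with wildtype 1 as the only control (right); the dotted line marks equal values. Points lie above the line at the positive end on the left (Hnrnph1 0.61 against 0.46) and below it on the right (Hnrnph1 0.15 against 0.46).

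Genes that act with these regulators were read from lists drawn up by function. A list of 10 genes for SR protein kinases and related kinases, a regulatory subunit of a phosphatase and the nuclear importer of SR proteins had 0 past the edgeR test and 8 positive fold changes (median 0.20). Set against wildtype 1 alone, 4 were positive with a median of -0.03, and with library size alone the median was -0.0042, against -0.21 for all genes. The lowest p belonged to Prpf4b, a kinase of the spliceosome, at 40.5 ± 4.74 CPM in knockout and 33.5 ± 4.76 CPM in wildtype (0.27 ± 0.17), followed by Srpk1, an SR protein kinase (0.29 ± 0.20), Tnpo3, the importer of SR proteins (0.24 ± 0.16), and the kinase Clk4 (0.28 ± 0.20). Of 18 SR-related genes, 17 were positive with a median of 0.19, and 0 passed. Beside 8.26% of all genes, 1 of the 18 was higher in knockout at an unadjusted edgeR p under 0.05. That was Srrm2, a scaffold of nuclear speckles, at 153, 192 and 141 CPM in knockout 1, 2 and 3, against 144, 110.3 and 86.0 CPM in wildtype 1, 2 and 3 (0.52 ± 0.22, edgeR adjusted p = 0.329). Wildtype 1 again lay inside the knockout range. Luc7l (0.55 ± 0.26), Pnn (0.33 ± 0.18) and Luc7l3 (0.30 ± 0.20) had the next lowest p. Against wildtype 1 alone 4 of the 18 were positive and the median was -0.06, and with library size alone the median was -0.01, against -0.21 for all genes.

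The core spliceosome stood on the other side. Of 34 genes for snRNP proteins and constitutive factors, 27 had negative fold changes, with a median of -0.21, and 0 passed the test. In 7 of them every knockout library lay below every wildtype library and in 1 above, where 9.81% and 10.6% of all genes did. Sf3b5, a subunit of the U2 snRNP, measured 29.8, 25.9 and 35.5 CPM in knockout 1, 2 and 3, against 31.9, 45.7 and 62.6 CPM in wildtype 1, 2 and 3 (-0.62 ± 0.24, edgeR adjusted p = 0.315), with knockout 3 above wildtype 1. The U5 GTPase Eftud2 (-0.33 ± 0.16), the U2 subunit Sf3a3 (-0.36 ± 0.18) and the Sm protein gene Snrpe (-0.51 ± 0.26) came next. Against wildtype 1 alone 11 of the 34 were positive and the median was -0.06. Whether the regulators and the core spliceosome differ from each other was not tested.

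Among 29 other RNA-binding regulators that were tested, 16 were positive (11 against wildtype 1 alone), and 0 passed. At an unadjusted edgeR p under 0.05, 3 were higher and 1 was lower, where 8.26% and 6.35% of all genes were. Khsrp, whose protein KSRP binds AU-rich mRNAs, measured 46.6, 56.3 and 47.2 CPM in knockout 1, 2 and 3, against 40.4, 34.8 and 31.6 CPM in wildtype 1, 2 and 3 (0.49 ± 0.16, edgeR adjusted p = 0.288). The cold-inducible Cirbp measured 18.7, 17.6 and 20.0 CPM in knockout 1, 2 and 3, against 26.5, 23.0 and 30.7 CPM in wildtype 1, 2 and 3 (-0.51 ± 0.17, edgeR adjusted p = 0.288). Neither pair of groups overlapped. Of the 29 genes, 2 lay fully above and 1 fully below wildtype, where 10.6% and 9.81% of all genes did. Celf2 (0.83 ± 0.29) and Mbnl2 (0.54 ± 0.21), from families that oppose each other in muscle splicing, were the other genes named by lowest p. Nonsense-mediated decay factors, which act on the unproductive transcripts of SR genes, had 7 of 15 positive fold changes, a median of -0.04 and 0 past the test. Smg1, the kinase of this pathway, measured 98.8 ± 9.08 CPM in knockout and 69.1 ± 15.4 CPM in wildtype (0.51 ± 0.19, edgeR adjusted p = 0.302), Casc3 0.35 ± 0.17 and Magoh -0.42 ± 0.23 on the log2 scale of knockout over wildtype.

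Markers of other cells differed in how far they followed the groups. The sums of the endothelial, red cell and muscle lists overlapped between knockout and wildtype libraries. Beside the cartilage and macrophage lists given above, all 12 endothelial markers were positive (median log2 fold change 1.29), with sums of 146 to 256 CPM in knockout and 55.0 to 148 CPM in wildtype libraries. All 9 neutrophil markers were positive too (median 1.65), with sums of 58.4 to 196 CPM in knockout and 20.6 to 57.1 CPM in wildtype libraries, and so were all 6 red cell markers (median 1.57), with sums of 49.9 to 401 CPM in knockout and 17.5 to 115 CPM in wildtype libraries. Elane and Alas2 were at 0 in at least 1 library. Of 7 skeletal muscle markers 2 were positive (median -0.38), with sums of 7.16 to 34.7 CPM in knockout and 5.02 to 45.5 CPM in wildtype libraries, and Actn2, Tnni2, Ckm and Ttn were at 0 in at least 1 library. Of the 12 osteoblast markers 2 were positive (median -0.27). Of 22 proliferation genes 20 were negative (median -0.52), with sums of 462 to 534 CPM in knockout and 611 to 706 CPM in wildtype libraries. In 14 of the 22 every knockout library lay below every wildtype library, where 9.81% of all genes did. The sizes of the medians other than that of the proliferation genes rested on single libraries. Leaving out 1 library at a time, the cartilage median ran from 1.46 (without knockout 1) to 2.96 (without wildtype 1), the endothelial one from 0.97 (without wildtype 3) to 2.02 (without wildtype 1), the macrophage one from 0.72 (without knockout 1) to 1.45 (without knockout 3), the neutrophil one from 0.80 (without knockout 1) to 2.5 (without wildtype 3) and the red cell one from 1.06 (without knockout 1) to 2.03 (without knockout 3). Every gene of these 5 lists stayed positive in each case. The cartilage and endothelial medians were 0.92 and 0.47 against wildtype 1 alone. In that comparison the macrophage, neutrophil and red cell medians were 1.04, 2.22 and 1.14. The osteoblast, muscle and proliferation medians were -0.05, -0.81 and -0.41 there. The osteoblast median ran from -0.53 (without knockout 3) to -0.11 (without wildtype 3), and that of the muscle markers from -0.97 (without wildtype 3) to -0.014 (without knockout 3), with limma voom giving 0.23 for muscle. That of the proliferation genes moved less, from -0.56 (without wildtype 1) to -0.43 (without wildtype 2). None of the genes in these lists passed the edgeR test at an adjusted p under 0.05. Splicing regulators are expressed in all of these cells, and the part of these lists in the differences of the regulators was not tested.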

How the data were processed

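RNA sequencing was done on sorted osteoblasts, with 3 knockout and 3 wildtype libraries. The authors deposited raw counts of reads per gene for 27179 Entrez IDs, with no normalization. Per the submitters' processing notes, CASAVA 1.7, Subread and featureCounts were used with mm10. Read length, library kit, strandedness, annotation and the treatment of reads with several matches were not given in those sources. Columns were assigned to samples by their names, and 0 were left over. Names came from RefSeq for 25275 IDs and from GENCODE M21 for 18. The remaining 1886 IDs stayed in all totals and tests.

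Genes were filtered with edgeR's filterByExpr (minimum count 10), scaled with TMM (factors 0.813 to 1.09), and tested by two-sided quasi-likelihood F-tests (edgeR 4.0.16, R 4.3.3) on all 6 libraries, with Benjamini-Hochberg adjustment over 13505 genes and a threshold of 0.05. The biological coefficient of variation was 24.2%. Log2 CPM used a prior count of 2. Pair ratios used counts plus 0.5 and the exact permutation test over libraries. Levels per kilobase used the union of GENCODE M21 exons, and near copies were found with blastn 2.17.0. No pair of libraries agreed within sampling noise (chi-square per degree of freedom at least 19.99). The script was tested on simulated counts. The alternatives used other scalings and filters, DESeq2 1.42.0, limma 3.58.1 (voom), the replicate number as a block, other sets of libraries, and for pairs a pseudocount of 1.

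The 36 genes, their pairs and the 13 other lists were chosen with earlier results of these data known, and the promoter motifs after some windows had been read. Named were all 36 genes, Cdc73 and, in each splicing-related list, the 4 genes of smallest p. A gene that this rule takes is not reported here. Of 203 list entries 1, Qki, matched no ID.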

Additional observations from a re-analysis of the deposited data

How the results depend on the processing

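None of the 36 regulators passed the threshold in any of 16 alternatives, where the lowest adjusted p was 0.0841 (edgeR without wildtype 1), and 16 of the 36 kept their sign in all of them. The number of genes called over the whole table depended on the setting. It was 0 with all 6 libraries in edgeR, 24 with no filter on low counts and 248 with DESeq2, and it ran from 0 to 409 when single libraries were left out, 409 being without wildtype 1. Tra2a and Hnrnph1 had an unadjusted edgeR p under 0.05 with all 6 libraries and without wildtype 1. Without any other single library 0 regulators did, and their adjusted p-values were then at least 0.387.

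With upper-quartile factors 3 regulators lay fully above wildtype and the fold change of Hnrnpf was -0.03. Hnrnpf was at -0.011 with no filter and at -0.0094 with the stricter filter of at least 1 CPM in 3 libraries. With library size alone the median was -0.15, 0 regulators lay fully above and 8 fully below, and sign changed for Srsf4 (-0.14), Srsf6 (-0.10), Hnrnpa0 (-0.17), Hnrnpa3 (-0.014), Hnrnpab (-0.11), Hnrnpd (-0.16), Hnrnpf (-0.20), Hnrnph2 (-0.12), Hnrnph3 (-0.086), Hnrnpm (-0.012) and Syncrip (-0.14). The median of all genes was -0.21 under this scaling, and the regulators with an unadjusted edgeR p under 0.05 were then Hnrnpl, Hnrnpul1 and Pcbp1, all lower in knockout, beside 2962 of all 13505 genes, in either direction, with such a p.

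Against wildtype 1 alone the median was -0.020, 8 regulators lay fully below, and sign changed for Srsf5 (-0.070), Srsf6 (-0.011), Srsf9 (0.058), Tra2b (0.0082), Hnrnpa0 (-0.013), Hnrnpa3 (-0.15), Hnrnpc (0.010), Hnrnpd (-0.26), Hnrnph2 (-0.20), Hnrnph3 (-0.25), Hnrnpk (0.0080), Hnrnpm (-0.094) and Syncrip (-0.043). The cause of these changes was not tested.

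Leaving out each library in turn gave a median of 0.0061 to 0.076, with 5 to 11 regulators fully above wildtype and 2 to 5 fully below, where 12.1% to 23.1% and 11.6% to 24.0% of all genes were. Fold changes that crossed 0 there ran from -0.11 to 0.0096 for Srsf2, -0.014 to 0.091 for Srsf4, -0.15 to 0.0080 for Tra2b, -0.13 to 0.18 for Hnrnpa0, -0.12 to 0.20 for Hnrnpd, -0.098 to 0.097 for Hnrnpf, -0.049 to 0.23 for Hnrnph2, -0.065 to 0.33 for Hnrnph3, -0.052 to 0.0043 for Hnrnpk, -0.041 to 0.35 for Hnrnpm, -0.14 to 0.033 for Hnrnpr, -0.034 to 0.14 for Syncrip, -0.12 to 0.044 for Ptbp1 and -0.18 to 0.086 for Ptbp2. Among pair ratios the differences that crossed 0 ran from -0.21 to 0.13 for Ptbp2 to Ptbp1, -0.15 to 0.0076 for Hnrnpa3 to Hnrnpa1, -0.028 to 0.13 for Hnrnpa2b1 to Hnrnpa1, -0.11 to 0.070 for Srsf4 to Srsf6 and -0.019 to 0.15 for Srsf9 to Srsf1.

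Libraries of the same number did not deviate together (correlations of 0.115, -0.0743 and 0.222 for numbers 1, 2 and 3), so the numbers were not taken to pair the samples. With the replicate number as a block edgeR called 236 genes (1.75% of those tested) and 0 regulators. Depth limits single values most for Hnrnph3, which had 33 counts in its lowest library.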
